A study of Homo sapiens with 2 samples.

Results

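The KLHDC genes encode proteins with kelch repeats and are described here in HepG2, a cell line from a human hepatocellular carcinoma, with and without an extract of the polyherbal remedy Padma 28. The group was put together around KLHDC7B and KLHDC9, which were chosen by their log2 difference between the 2 arrays, and the other genes joined it by name. It holds 10 genes of the 19775 that have a probe set of their own on the array, and 24 of all 54675 probe sets. The EtOH group received 0.9% ethanol and the Padma 28 group received 218 μg/ml of the ethanolic extract, in each case for 18 h in medium with fetal calf serum. No genetic change was made in either group, and both share the solvent. Cells of 3 cultures per treatment were combined before RNA was isolated, and each pool was measured on 1 Affymetrix Human Genome U133 Plus 2.0 array. There is therefore no spread between cultures, no test across samples and no error for any value given here, and the treatment cannot be told apart from other differences between the pools. The values that chose KLHDC7B and KLHDC9 are the ones reported, so they are a description.

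A kelch repeat is a short protein motif, and several in a row fold into a β-propeller that binds other proteins. Many kelch proteins present their bound partner to a cullin ubiquitin ligase, which marks it for the proteasome. KLHDC2, KLHDC3 and KLHDC10 are substrate receptors of ligases built on CUL2 and recognise the C-terminal end of their targets, and KLHDC1 works in the same way with CUL5. KEAP1, a kelch protein of another branch with a BTB domain, holds Nrf2 at a CUL3 ligase in unstressed cells.

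The promoter windows of KLHDC7B and KLHDC9 are shown because these genes had the largest differences of the group, and that of KLHDC7A because it is the nearest relative of KLHDC7B by name and stayed below background. Each runs from 250 bases before to 50 bases after the annotated start of the gene, 5′ to 3′ on its coding strand, and comes from RefSeq on GRCh38.p14. Capitals mark a match to one of the 3 motifs searched. The windows lie at chr22:50545649-50545948, chr1:161098111-161098410 and chr1:18480680-18480979, all on the plus strand.
KLHDC7B: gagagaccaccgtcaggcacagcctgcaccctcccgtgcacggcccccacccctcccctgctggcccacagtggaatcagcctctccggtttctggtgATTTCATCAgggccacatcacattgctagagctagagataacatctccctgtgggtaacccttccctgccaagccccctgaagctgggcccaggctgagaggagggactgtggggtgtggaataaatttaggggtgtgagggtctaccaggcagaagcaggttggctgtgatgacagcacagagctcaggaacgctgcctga
KLHDC9: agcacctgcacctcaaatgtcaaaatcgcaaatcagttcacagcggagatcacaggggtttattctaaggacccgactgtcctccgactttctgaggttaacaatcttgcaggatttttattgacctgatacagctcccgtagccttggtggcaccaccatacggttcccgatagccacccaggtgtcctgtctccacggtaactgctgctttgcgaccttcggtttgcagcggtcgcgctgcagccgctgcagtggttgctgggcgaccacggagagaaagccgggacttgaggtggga
KLHDC7A: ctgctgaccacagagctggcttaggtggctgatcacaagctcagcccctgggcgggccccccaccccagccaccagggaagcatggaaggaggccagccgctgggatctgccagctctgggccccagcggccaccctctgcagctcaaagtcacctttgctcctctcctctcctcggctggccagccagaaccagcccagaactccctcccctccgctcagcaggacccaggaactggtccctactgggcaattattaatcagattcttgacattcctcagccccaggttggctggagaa

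KLHDC7B was higher with Padma 28 on the one of its probe sets that rose above background, KLHDC9 was higher on its single probe set, and no KLHDC gene was lower by more than 2-fold. Represented by its brightest probe set, 2 of the 10 genes were more than 2-fold higher, or 20.0% of the group, where 0.875% of all genes were. None was more than 2-fold lower, where 0.384% of all genes were. Counted as probe sets, 3 of 24 were higher and 0 lower, against 0.646% and 0.412% of all probe sets, and 1 of the 3 lay below background on both arrays. The differences of KLHDC7B and KLHDC9 formed the group, so nothing is read from these shares. Of the 10 genes 5 had a difference above 0 and 5 below it, and the median was 0.17 on the log2 scale against -0.02 for all genes. Among those below 0, KLHDC1, KLHDC7A and KLHDC8A were below background on both arrays, so their direction is not read. Of the 7 genes above background on at least 1 array, 5 were above 0, and the median was 0.36. Of all such genes 58.1% were above 0, with a median of 0.06. The 7 genes include KLHDC7B and KLHDC9, which were chosen by their difference and were above background with Padma 28 alone. Nothing is therefore read from these counts and medians. Of the others, KLHDC4, KLHDC8B and KLHDC10 were above 0 and KLHDC2 and KLHDC3 below it. Centring both arrays on their medians adds 0.05 to every difference, which turns KLHDC3, KLHDC7A and KLHDC8A from just below 0 to 0.01, 0.01 and 0.04.

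Values are log2 expression values on the scale of GCRMA, and a difference is Padma 28 minus EtOH. A probe set counts as well above background from 4.25 with EtOH and 4.35 with Padma 28, which is 2 log2 units over the most frequent value of each array. Of the 24 probe sets, 13 were above background on both arrays, 2 with Padma 28 alone and 9 on neither. The 13 belong to KLHDC2, KLHDC3, KLHDC4, KLHDC8B and KLHDC10, and all 13 differed by less than 2-fold. Their median difference was 0.35, with 9 above 0 and 4 below. KLHDC4 gave 5 of the 13 and KLHDC10 gave 4, so these are not separate readings. By the brightest probe set KLHDC4, KLHDC8B and KLHDC10 were above 0 and KLHDC2 and KLHDC3 below.

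**Figure D1:**
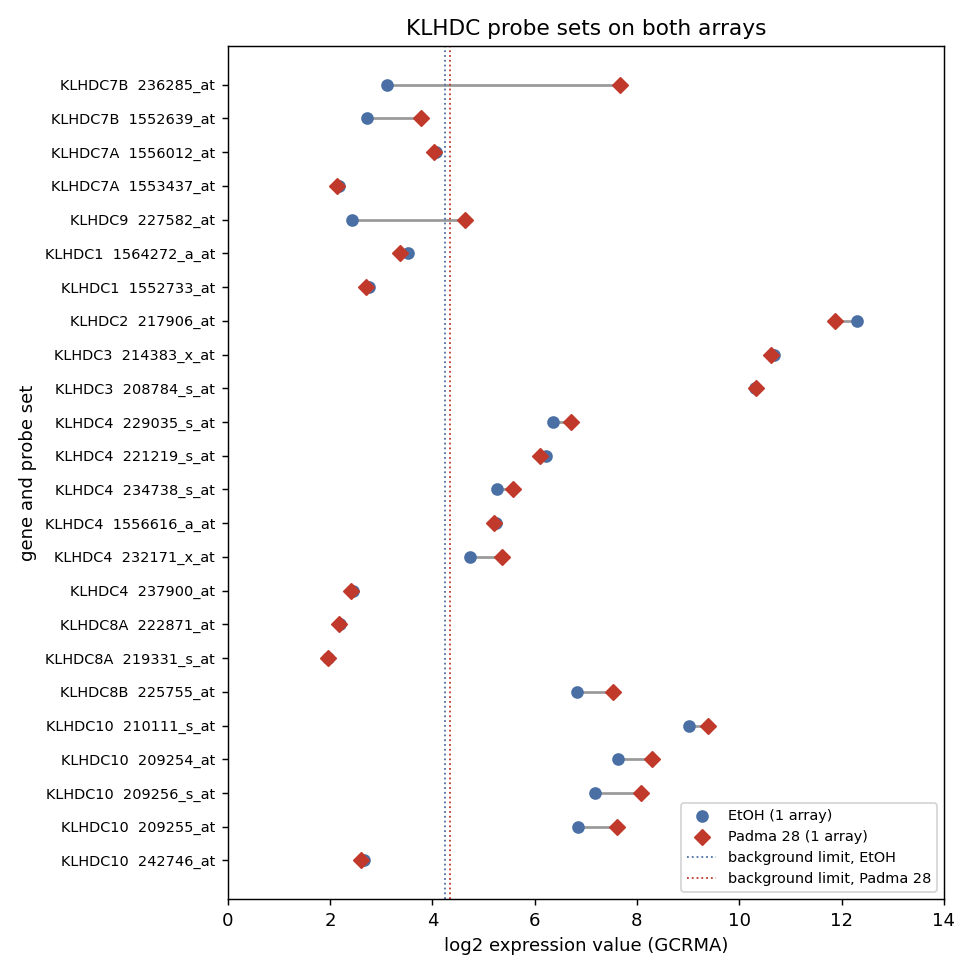
Log2 expression value (horizontal axis) of each of the 24 KLHDC probe sets (vertical axis) with EtOH (blue circles) and with Padma 28 (red diamonds), 1 array each, where dotted lines are the background limits of 4.25 and 4.35. The values of KLHDC7B on 236285_at and of KLHDC9 cross the limits, while the 9 probe sets below them on both arrays include every one of KLHDC1, KLHDC7A and KLHDC8A.

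KLHDC7B, on chromosome 22 from 50545899 to 50551023, had a value of 3.11 with EtOH and 7.66 with Padma 28 on probe set 236285_at. This is a log2 difference of 4.55, or 23.4-fold as deposited. Relative to the background limits the value was -1.14 with EtOH and 3.31 with Padma 28. Its level with EtOH is only bounded, so KLHDC7B was at least 10.6-fold higher with Padma 28 on this probe set, given these limits. Its other probe set, 1552639_at, had a value of 2.71 with EtOH and 3.79 with Padma 28. Both values lay below background, so no fold change is given for it, although its deposited difference of 1.07 was the smallest of the group past 2-fold. Values below background carry no order, so the higher level of KLHDC7B rests on 236285_at alone. The difference of 236285_at was the third largest of all 19775 genes, after CYP1A1, a monooxygenase of aromatic hydrocarbons, at 8.67 and the pseudogene NMRAL2P at 4.79. With both values raised to the background limit where they were lower, it was also the third largest. The place of KLHDC7B among all genes was 4 by the most changed probe set or with 16 added to linear values. It was 7 by the median of its probe sets and 10 with 64 added.

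KLHDC7A, which shares the kelch architecture of KLHDC7B, had no value above background. Its probe set 1556012_at was at 4.08 with EtOH and 4.03 with Padma 28. The other, 1553437_at, was at 2.18 with EtOH and 2.14 with Padma 28. Neither moved by as much as 0.15 log2 units, the median disagreement between the 2 brightest probe sets of a gene over 5064 genes, and the high value of KLHDC7B had no counterpart here.

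KLHDC9, also called KARCA1 for its binding to cyclin A1, lies on chromosome 1 from 161098361 to 161100346. Its only probe set, 227582_at, had a value of 2.43 with EtOH and 4.64 with Padma 28. The log2 difference of 2.21 was the 15th largest of all genes and amounts to 4.64-fold as deposited. Relative to the background limits the value was -1.82 with EtOH and 0.29 with Padma 28, so KLHDC9 was at least 1.31-fold higher, given these limits. Its place among all genes depended on the value below background and was 1422 with values raised to the limit, 119 with 16 added to linear values and 1093 with 64 added. No second probe set is there to set beside it.

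**Figure D2:**
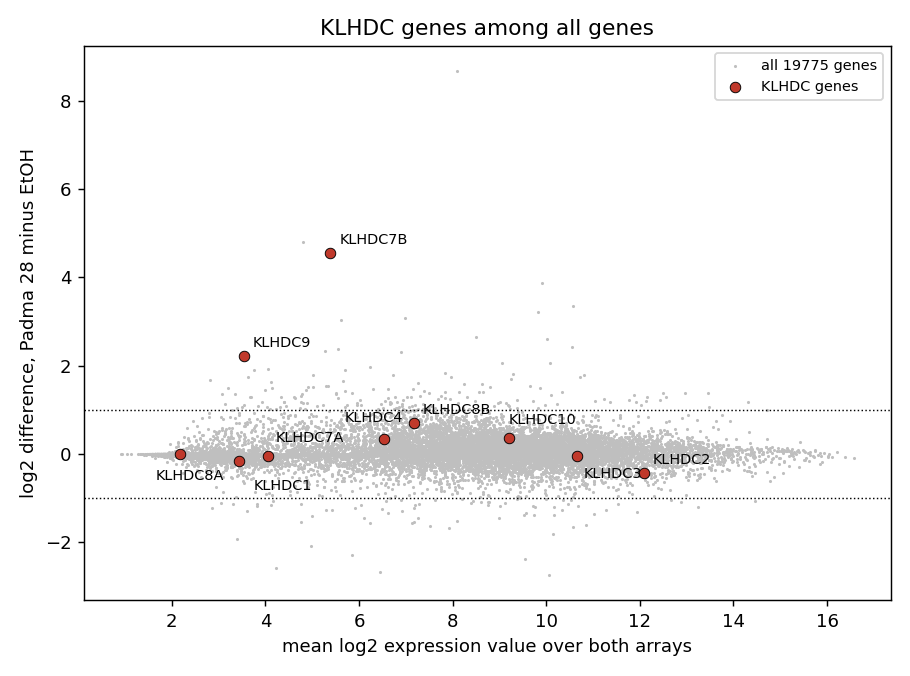
Log2 difference, Padma 28 minus EtOH (vertical axis), against the mean log2 expression value over both arrays (horizontal axis) for all 19775 genes (grey) and the 10 KLHDC genes (red), each by its brightest probe set, from 1 array per treatment. KLHDC7B at 4.55 and KLHDC9 at 2.21 lie above the dotted line for 2-fold and the other 8 between the lines.

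The substrate receptors of CUL2 and CUL5 ligases differed by less than 2-fold and not in the same direction. KLHDC10, which also promotes ASK1 signalling under oxidative stress, had 5 probe sets. Probe set 210111_s_at went from 9.02 with EtOH to 9.39 with Padma 28, and 209254_at from 7.63 to 8.30. Probe set 209256_s_at went from 7.17 to 8.08, and 209255_at from 6.84 to 7.61. All 4 were above background on both arrays and higher with Padma 28, by 0.36, 0.67, 0.90 and 0.77 log2 units. The value of 0.90 was the largest of the group within 2-fold. The fifth, 242746_at, lay below background at 2.67 and 2.61. Over all genes, 8.94% had a difference as large as the 0.36 that represents KLHDC10.

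KLHDC2 had a value of 12.30 with EtOH and 11.86 with Padma 28 on its single probe set. Its difference of -0.43 was the lowest of the group, and 3.04% of all genes were at or below it. KLHDC3, for which a role in meiosis has been described, was at 10.67 and 10.63 on one probe set and at 10.31 and 10.33 on the other, with EtOH and Padma 28 respectively. These differences, -0.04 and 0.02, were smaller than the usual disagreement between probe sets. KLHDC1 was below background throughout, at 3.52 with EtOH and 3.36 with Padma 28 on its brighter probe set and at 2.77 and 2.70 on the other. KLHDC1 and KLHDC2 are neighbours on chromosome 14, 15.0 kb apart, and only KLHDC2 was above background in these cells.

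KLHDC8B, a midbody protein of dividing cells, had a value of 6.83 with EtOH and 7.52 with Padma 28. The difference of 0.69 came from a single probe set above background on both arrays, and 2.43% of all genes had one as large. Its relative KLHDC8A was below background on both arrays, with differences of -0.01 and -0.02 on 2 probe sets.

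KLHDC4 had 6 probe sets that did not move together. On 229035_s_at it was at 6.36 with EtOH and 6.71 with Padma 28, and on 221219_s_at at 6.22 and 6.10. The remaining 3 above background had differences of 0.32, -0.03 and 0.63, and 237900_at was below background with -0.02. The 5 above background spanned 0.76 log2 units, more than the 0.54 spanned by the 4 of KLHDC10, and lay on both sides of 0.

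In the wider set of kelch genes, ENC1 was the one gene past 2-fold. Over all genes 0.875% were higher and 0.384% lower by as much. ENC1, an actin-associated protein with a BTB domain, was lower on both of its probe sets. Probe set 201341_at went from 11.92 with EtOH to 10.63 with Padma 28, or 2.43-fold lower. On 201340_s_at it went from 10.68 to 9.06, a difference of -1.62. Both lay far above background on both arrays.

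Of 34 measured genes of the KLHL family, which join a BTB domain to kelch repeats, 19 were above background and 0 were past 2-fold. That count is near the share of all genes, so nothing is read from it. The highest above background were KLHL36 at 0.58 and KLHL12 at 0.56, the latter a receptor that acts on COPII coats. Other probe sets above background were at 0.39 and -0.01 for KLHL36 and at 0.27 for KLHL12. The lowest were KLHL26 at -0.28 and KLHL24 at -0.23. Probe sets of KLHL24 disagreed, since another one that was well above background stood at 0.58. The median of the 34 was -0.04, close to that of all genes.

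Of 11 further genes with BTB and kelch domains, 8 were above background and ENC1 alone passed 2-fold. KEAP1 had a value of 9.73 with EtOH and 10.18 with Padma 28, and its difference of 0.44 was the highest of the list, before KBTBD4 at 0.30. The other probe set of KBTBD4, above background as well, was at -0.32, so this gene has no single direction. IVNS1ABP, at -0.32, was the lowest after ENC1, and another of its probe sets was at 0.09. Of 9 further kelch genes, which lack a BTB domain except for LZTR1, none passed 2-fold. Among them LCMT2, a tRNA-modifying enzyme, was at 0.43 and FBXO42 at 0.31, while attractin, ATRN, was at -0.73 and HCFC2 at -0.62. Other probe sets above background were at -0.13 for FBXO42 and 0.10 for HCFC2, and the second of ATRN was at -0.61. Taken over these 3 lists, none of 129 probe sets was more than 2-fold higher and the 2 of ENC1 were lower. Of all probe sets 0.646% were higher and 0.412% lower. Counts this low are near those shares, so nothing is read from them.

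**Figure D3:**
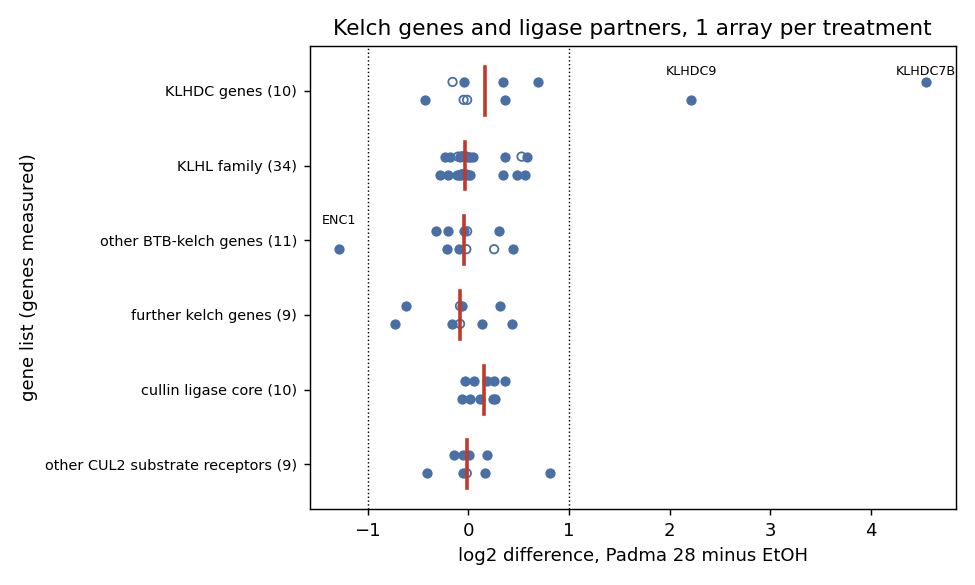
Log2 difference, Padma 28 minus EtOH (horizontal axis), of the genes of 6 lists (vertical axis, genes measured in brackets), each by its brightest probe set, from 1 array per treatment. Filled points are above background on at least 1 array, open points on neither, each red bar is a median, and the dotted lines at 2-fold leave KLHDC7B, KLHDC9 and ENC1 outside.

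The ligase parts that KLHDC proteins work with stayed within 2-fold, which 0.875% of all genes passed upward and 0.384% downward. All 10 measured genes of the cullin ligase core were above background, 8 of them with a difference above 0 (CUL2 also lies above it, at 0.02, after centring on medians), and the median was 0.15, where that of all genes above background was 0.06. CUL3 was at 0.36 and RNF7, the RING subunit of CUL5 ligases, at 0.27. CUL2 was at -0.03 and CAND1, which exchanges substrate receptors, at -0.06. The elongins that link KLHDC receptors to their cullins were at 0.25 for ELOB and 0.18 for ELOC. Of 9 other receptors of CUL2 ligases none passed 2-fold. LRR1 was the highest at 0.81, followed by FEM1B at 0.18, and FEM1C at -0.41 and APPBP2 at -0.14 were the lowest.

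The measured neighbours of KLHDC7B and KLHDC9 on the chromosome, each by its brightest probe set, lay within 2-fold. Over all genes 0.875% were higher and 0.384% lower by more than 2-fold, so nothing is read from counts of none. Within 100 kb of KLHDC7B, 13 genes were measured and none passed 2-fold. Among the 10 above background differences ran from -0.14 for NCAPH2, a condensin subunit, to 0.43 for arylsulfatase A, ARSA. SCO2, a copper chaperone of cytochrome oxidase, was at 0.38 and the lncRNA CHKB-DT at 0.36. The thymidine phosphorylase TYMP was at -0.08 and SBF1 at -0.11. LMF2, CIMAP1B, CHKB and MAPK8IP2 lay between -0.03 and 0.14. KLHDC7B-DT, a lncRNA of the opposite strand that covers 59.5% of KLHDC7B, had no probe set under its name, so it was not analysed here.

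Around KLHDC9, 11 genes were measured within 100 kb and none passed 2-fold. UFC1, the conjugating enzyme of UFMylation, was the highest of the 8 above background at 0.37, and the prefoldin subunit PFDN2 was at 0.18. The deubiquitinase USP21 was at -0.15 and ARHGAP30 at -0.15. NIT1, DEDD, PPOX and B4GALT3 lay between -0.10 and 0.11. KLHDC7B and KLHDC9 were chosen by their difference, so nothing is read from their distance to these neighbours. With values raised to the background limit KLHDC9 was at 0.39, close to UFC1.

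**Figure D4:**
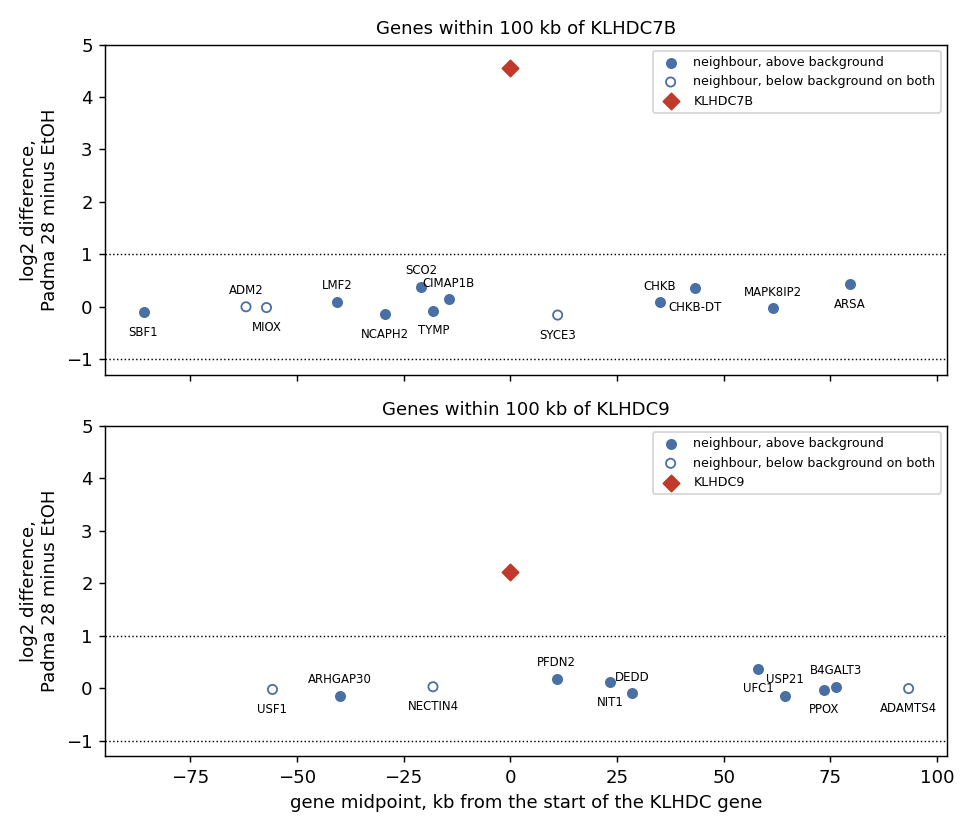
Log2 difference, Padma 28 minus EtOH (vertical axis), of the genes within 100 kb of KLHDC7B (top) and KLHDC9 (bottom). Each gene is shown by its brightest probe set, from 1 array per treatment. The horizontal axis is the distance of the gene midpoint from the start of the KLHDC gene in kb. Open points did not reach the background limit on either array, and 2-fold is dotted; the neighbours lie between -0.16 and 0.43, and the KLHDC genes (red) at 4.55 and 2.21.

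The genes whose pair of values lay nearest to that of KLHDC7B were NMRAL2P, PMAIP1, CD14, LOC374443 and JDP2, by Euclidean distance over the 2 arrays. NMRAL2P was at 2.40 with EtOH and 7.19 with Padma 28, a distance of 0.85 log2 units, and JDP2 was 1.92 away. NMRAL2P, PMAIP1 and LOC374443 were below background with EtOH, like KLHDC7B. For KLHDC9 the same measure named SLC6A9, B4GALNT1, LRRIQ3, TUB and SHROOM2, at distances from 0.36 to 0.70. All 5 were below background with EtOH, and LRRIQ3, TUB and SHROOM2 with Padma 28 too, so no order is read among them. SLC6A9 was at 2.75 with EtOH and 4.49 with Padma 28, and B4GALNT1 at 2.80 and 4.71. These likenesses rest on 2 arrays.

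Promoter windows were found for 8 of the 10 genes. They were searched on both strands for the core of the antioxidant response element bound by Nrf2, TGACNNNGC, the core of the xenobiotic response element bound by AhR, GCGTG, and the C/EBP-ATF element bound by ATF4, TGATGNAAN. No matches overlapped in these windows. The windows of KLHDC9, KLHDC7A and KLHDC3 held none of the 3. That of KLHDC7B held 1 C/EBP-ATF match, ATTTCATCA on the coding strand, which begins 152 bases before the start. The same element was present in 3.61% of all 35116 windows searched. An antioxidant response element core was found in the window of KLHDC2 alone, as in 13.35% of all windows, and xenobiotic cores in those of KLHDC1, KLHDC8A and KLHDC8B, as in 36.54%. The windows of KLHDC7B and KLHDC7A each held 5 CpG dinucleotides and that of KLHDC9 held 17, where the median window held 14. A match is a description of letters and not of a bound site.

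Target genes of Nrf2 and of ATF4, and genes of the interferon response, were read on the same arrays. Over all genes 0.875% were more than 2-fold higher and 0.384% more than 2-fold lower. Of 9 measured Nrf2 target genes 8 were more than 2-fold higher, from thioredoxin reductase TXNRD1 at 1.29 to the cystine transporter SLC7A11 at 3.21, and the malic enzyme ME1 was below background. Of 10 ATF4 target genes asparagine synthetase ASNS, DDIT3 and TRIB3 passed 2-fold, at 3.35, 1.51 and 1.22, and none was more than 2-fold lower. SESN2, PSAT1, CEBPG, DDIT4, VLDLR and ATF5 lay between 0.16 and 0.90, and CHAC1 was below background on both arrays. Of 9 interferon response genes 4 were above background and none passed 2-fold, with OAS1 at 0.81, ISG15 at 0.09, IFIT3 at -0.38 and IFIT1 at -0.41. A count of none, in either direction and in any of these lists, is near the share of all genes, so nothing is read from it. Whether any of these pathways acts on KLHDC7B or KLHDC9 was not tested.

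The hepatic identity of the line was visible on both arrays. All 9 measured hepatocyte markers, albumin and α-fetoprotein among them, were above background, with values from 12.84 to 16.62 and none past 2-fold. Of 6 leukocyte markers PTPRC, CD3E, CSF1R and ITGAM were below background, whereas LYZ and CD74 were above it, and the log2 of the summed level was 14.50 with EtOH and 14.34 with Padma 28. Of 8 fibroblast and endothelial markers COL1A1, PDGFRB and PECAM1 were above background and 5 below it, and the log2 sums were 8.20 and 8.18. Both groups were cultures of the HepG2 line, so LYZ and CD74 are read as levels in these cultures and not as leukocytes present. The purity of the cultures was not tested.

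The differences of KLHDC7B and KLHDC9 depended on the low end of the scale. After addition of 16 to the linear values, KLHDC7B had a difference of 3.15 and KLHDC9 of 0.94, under 2-fold. With 64 added they had 1.87 and 0.36. KLHDC8B, KLHDC10 and KLHDC2, which were above background on both arrays, ranged from 0.48 to 0.75, from 0.32 to 0.90 and from -0.46 to -0.38 over all settings tried.

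**Figure D5:**
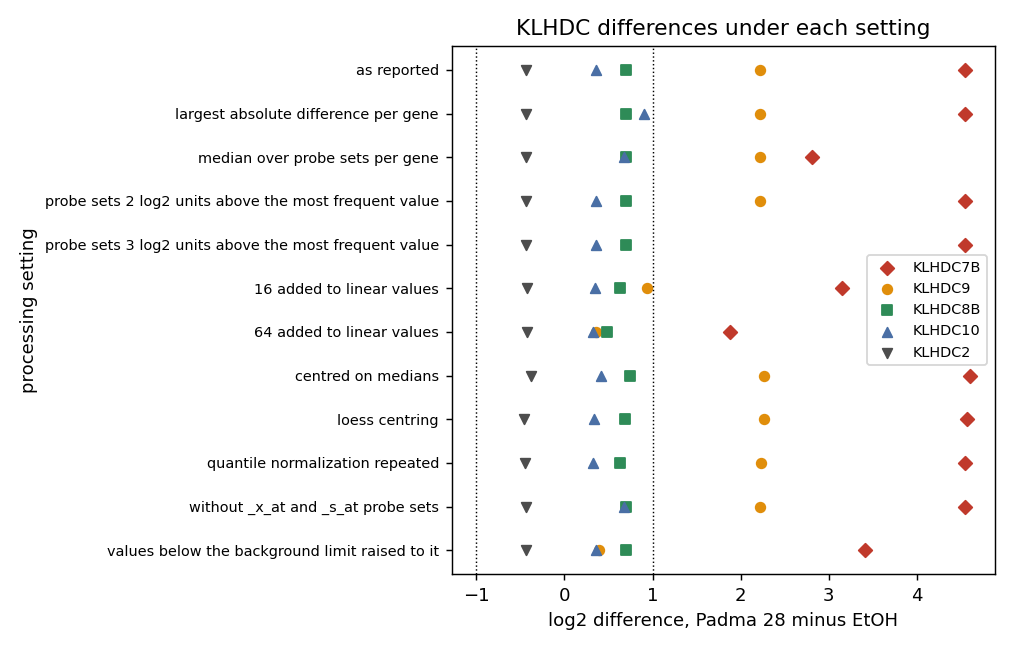
Log2 difference, Padma 28 minus EtOH (horizontal axis), of 5 KLHDC genes under each processing setting (vertical axis), from 1 array per treatment, with dotted lines at 2-fold. KLHDC7B stays above 2-fold under each setting shown, from 1.87 to 4.60, while KLHDC9 runs from 0.36 to 2.27 and has no value under the stricter background filter.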

How the data were processed

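Expression was measured in HepG2 cells with 1 array per treatment, EtOH or Padma 28. The authors deposited log2 values made with GCRMA, which models background from the GC content of the probes, normalizes by quantiles and summarizes by median polish. Versions in the submitters' processing notes are R 2.15.1 and GCRMA 2.28.0, later than those of the methods. An unspecific filter is also mentioned there without its criterion, and none was applied.

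The log2 difference Padma 28 minus EtOH was taken per probe set. Genes were named from the platform annotation and updated through Entrez identifiers to RefSeq symbols (GRCh38.p14). Probe sets of several genes (1801) or of none (11777) name no gene here. A gene was represented by its own probe set with the highest mean. The background limit was the most frequent value in bins of 0.1 plus 2 log2 units. Depth does not apply to arrays, and their number limits the precision. The 18 hybridisation spike-in probe sets differed by -0.15 to 0.10.

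The genes described, all lists (KLHDC, KLHL, other kelch, ligase, pathway and cell type markers) and the motifs were chosen with earlier results of these data known. Named are all KLHDC genes, the 2 highest and 2 lowest genes above background of the kelch and ligase lists, genes past 2-fold, neighbours within 100 kb and the 5 genes nearest in value. Elongins, further markers and other probe sets of ENC1 and of further kelch genes were named after their values were seen. The steps were tested on simulated data. A planned description of protein sequences was not run. Software was Python 3.11.15 with matplotlib 3.10.9, statsmodels 0.14.6, pandas 2.3.3 and numpy 2.4.6.

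As alternatives, a gene was given its most changed probe set or the median of its probe sets, and filters at 2 or 3 log2 units over the most frequent value, addition of 16 or 64 to linear values, centring on medians or along a loess curve (span 0.3), repeated quantile normalization and omission of _x_at and _s_at probe sets were tried. Raising values to the background limit was added after seeing the data.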

Additional observations from a re-analysis of the deposited data

How the results depend on the processing

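With 1 array per treatment no replicate could be left out, and a value is said to have moved when it changed by more than 0.15 log2 units, the median disagreement between the 2 brightest probe sets of a gene. No paired analysis was possible because each treatment has 1 array. The number of KLHDC genes past 2-fold was 1 in place of 2, and that of probe sets 1 in place of 3, with 16 or 64 added to linear values, with the filter at 3 log2 units and with values raised to the background limit, and under each of these KLHDC7B was the gene that passed. The filter at 2 log2 units left 2 genes and 2 probe sets past 2-fold. The difference of KLHDC7B was 3.15 with 16 added, 1.87 with 64 added, 2.81 as the median of its probe sets and 3.41 with values raised to the limit. KLHDC9 was at 0.94, 0.36 and 0.39 with 16 added, 64 added and values raised to the limit, and had no value under the filter at 3 log2 units. The median of the group was 0.36 under either filter (0.3617 over 7 genes at 2 log2 units, 0.3551 over 6 at 3) and -0.0115 without _x_at and _s_at probe sets, where KLHDC3 drops out and KLHDC4 is represented by a probe set at -0.03. Of 81 values of the other 8 genes under these alternatives 73 moved by less than 0.15. KLHDC10 was at 0.90 with its largest probe set and 0.67 as the median or without _x_at and _s_at probe sets. Over all genes the counts past 2-fold were 173 upward and 76 downward, against 264 and 153 by the most changed probe set, 114 and 60 by the median, 97 and 54 with 16 added and 64 and 34 with 64 added. Depth is not a measure for arrays, and values below the background limit carry no order.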
